A study of Mus musculus with 12 samples.

Results

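Pancreas tumours labelled as depleted of cells that make alpha smooth muscle actin (aSMA) were compared with tumours of the matching aSMA-TK control. The comparison takes every array with either genotype label, 6 of the 12 arrays of the series, with 3 tumours in each group, and covers 30142 genes. All 12 tumours came from PKT mice, and the mouse number in the labels differs between the arrays, so each array stands for a separate animal. PKT mice develop pancreatic ductal adenocarcinoma, and their pancreatic epithelium lacks the TGF-beta receptor Tgfbr2. The control tumours carry the label "aSMA-TK control (no depletion)", and the other group carries the label "aSMA depleted". TK is a viral thymidine kinase placed under the aSMA promoter, which makes dividing cells with an active promoter sensitive to ganciclovir. The labels' protocol gives ganciclovir at 50 ug per kg with the same wording for all 12 tumours, so whether the controls received it is not clear, and the drug and the loss of cells cannot be told apart as sources of a difference. Neither the age of the mice nor the length of treatment is given in the sources used here. The other 6 arrays came from a FAP-TK line, depleted of cells with fibroblast activation protein or left as its control. They share the normalization and the fit, so their spread enters every standard error and p of the fit. Their own values are otherwise given only beside those of the aSMA line.

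Alpha smooth muscle actin, encoded by Acta2, is a component of the contractile filaments of smooth muscle cells and is also made by pericytes, the cells that wrap small vessels, and by activated fibroblasts. In pancreatic ductal adenocarcinoma these activated fibroblasts, often called myofibroblasts, lie close to the tumour glands and lay down collagen. Other fibroblasts of the same stroma make little aSMA and secrete cytokines such as interleukin 6. The aSMA promoter therefore marks several cell types, and a TK transgene under it does not separate them. Each array measured RNA of a whole tumour piece, so fewer cells of a type and less RNA per cell cannot be told apart in any value below.

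Values are normalized log2 values per gene, listed in the order control 1, 2 and 3 and then labelled-depleted 1, 2 and 3. Differences are the labelled-depleted mean minus the control mean in log2 units, with the standard error (SE) of the 4-group fit, which has 3 tumours in each group. This SE pools the spread within all 4 groups, those of the FAP line included. It therefore does not measure the spread of the aSMA-line tumours alone. A gene counted as above background on an array where it exceeded the 95th percentile of that array's negative control probe sets, and 13.5% of the genes did so on at least 4 of the 6 arrays. Between 3985 and 4902 genes were above background on each of the 6. Pairs of arrays correlated across genes at 0.986 within the controls, at 0.969 to 0.985 within the labelled-depleted tumours and at 0.959 to 0.990 between the groups. Labelled-depleted tumour 1 had the lowest median correlation with the other 5 arrays, 0.969 against 0.981 to 0.986 for the others. Sex, read from Xist and the Y-linked genes, was mixed in both groups: control 1 and labelled-depleted 2 and 3 had the profile of females, and control 2 and 3 and labelled-depleted 1 that of males. Of the 16 measured ductal epithelial genes 14 were above background on at least 4 of the 6 arrays. The keratin Krt19 of that list lay at 17.70, 17.44 and 18.12 in the controls and 16.54, 17.54 and 17.81 in the labelled-depleted tumours.

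The depletion label was first set against Acta2 itself, the gene whose promoter drives the transgene. Acta2 lies on the minus strand of chromosome 19 from 34240336 to 34255585 (GRCm38.p6). The 250 bases before its start are shown because they belong to the promoter on which the depletion depends. They are taken from RefSeq (GRCm38.p6, chr19:34255374-34255623, minus strand, 5′ to 3′), counted from a transcript start that lies inside the outer bounds of the gene. Capitals mark matches to the CArG box, the binding site of serum response factor (CC, 6 bases and GG on either strand, with at most 1 of the 6 other than A or T).
Acta2: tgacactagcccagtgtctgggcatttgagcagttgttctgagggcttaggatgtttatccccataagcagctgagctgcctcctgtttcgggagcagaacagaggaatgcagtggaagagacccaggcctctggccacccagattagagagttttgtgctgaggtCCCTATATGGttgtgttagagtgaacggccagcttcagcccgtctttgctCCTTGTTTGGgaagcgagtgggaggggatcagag
The window holds 2 such matches. At least 1 match was present in 8.59% of the 32851 windows of this length in the table, and 2 or more were present in 0.67%. Among the 16 contractile genes with a window, 3 had a match, namely Acta2, the myosin light chain gene Myl9 and the filament gene Synm. A match describes the letters and is not evidence of binding.

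Acta2 had a higher mean, not a lower one, in the tumours labelled aSMA depleted, and these 3 tumours differed widely. Its values were 12.26, 10.85 and 11.12 in the controls and 10.13, 13.86 and 15.28 in the labelled-depleted tumours. Tumour 1 of the labelled-depleted group was below every control and tumours 2 and 3 were above every control, so the groups overlapped. The mean difference was 1.68 ± 1.71 log2 units (adjusted p = 0.949, limma), higher in 2 of 3 labelled-depleted tumours, and an exact permutation test over the 6 tumours gave p = 0.4, two-sided, where 3 against 3 cannot go below 0.1. Leaving out 1 tumour at a time moved the difference between 0.58 and 3.16, and it was highest without labelled-depleted tumour 1. With sex as a covariate it was 0.93, and with array weights 2.25. In the 6 tumours the split coincided with sex. Acta2 was 12.26, 13.86 and 15.28 in those with a female profile and 10.85, 11.12 and 10.13 in those with a male profile. In the FAP line it was 12.82 and 11.87 in females and 8.86, 14.60, 7.84 and 11.51 in males, so the sexes overlapped there. The cause of the split was not tested. Since the target gene goes against the label in tumours 2 and 3, the group is called labelled-depleted here, and no direction below is read as the result of a loss of aSMA-positive cells.

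Several other contractile genes of smooth muscle split the labelled-depleted tumours in the same way, and tumour 1 had the lowest value of all 6 in 10 of the 19 genes of that list. The share of all genes lowest in tumour 1 was not counted. Tagln, the actin-binding protein transgelin, lay at 9.12, 8.64 and 8.48 in the controls and at 6.94, 9.64 and 10.91 in the labelled-depleted tumours, with the lowest value of all 6 in tumour 1 and the 2 highest in tumours 2 and 3. Myl9, the regulatory light chain of smooth muscle myosin, was 7.14, 6.81 and 6.92 against 6.44, 8.76 and 9.46, again with tumour 1 lowest. Myh11, the smooth muscle myosin heavy chain, was 6.32, 6.03 and 5.85 against 5.56, 8.54 and 6.66. Calponin (Cnn1), desmin (Des) and the enteric gamma actin Actg2 had their 2 highest values in labelled-depleted tumours 2 and 3, while tumour 1 lay among the controls for Cnn1 and Des and below them for Actg2. For each of these genes, as for Acta2, every tumour with a female profile lay above every tumour with a male profile. Of the 19 measured genes of the contractile list, 16 had a higher mean in the labelled-depleted group, where 53.2% of all genes did. The share among all genes was 44.2% with the values as deposited and 61.7% after median centring. The median difference of the list was 0.42 (0.19 to 0.49 when 1 tumour was left out), beside 0.01 for all genes. None of the 19 passed the test, and 2 were above background on at least 4 of the 6 arrays.

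A few contractile genes did separate the groups. Synpo2, an actin-bundling protein, was 4.06, 3.86 and 3.85 in the controls and 4.20, 4.95 and 4.21 in the labelled-depleted tumours. Mylk, the kinase that starts contraction by phosphorylating the light chain, was 5.76, 5.95 and 6.03 against 6.55, 6.18 and 6.40. Cald1, the actin regulator caldesmon, was 8.51, 8.62 and 8.57 against 9.24, 9.14 and 9.35. With Ppp1r14a, an inhibitor of the phosphatase that ends contraction, these make 4 of 19 genes with all labelled-depleted values above all control values, a pattern that 7.43% of all genes showed. The difference was 0.53 ± 0.25 for Synpo2, 0.46 ± 0.24 for Mylk and 0.68 ± 0.52 for Cald1, with an adjusted p of 0.944 for each.

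**Figure D1:**
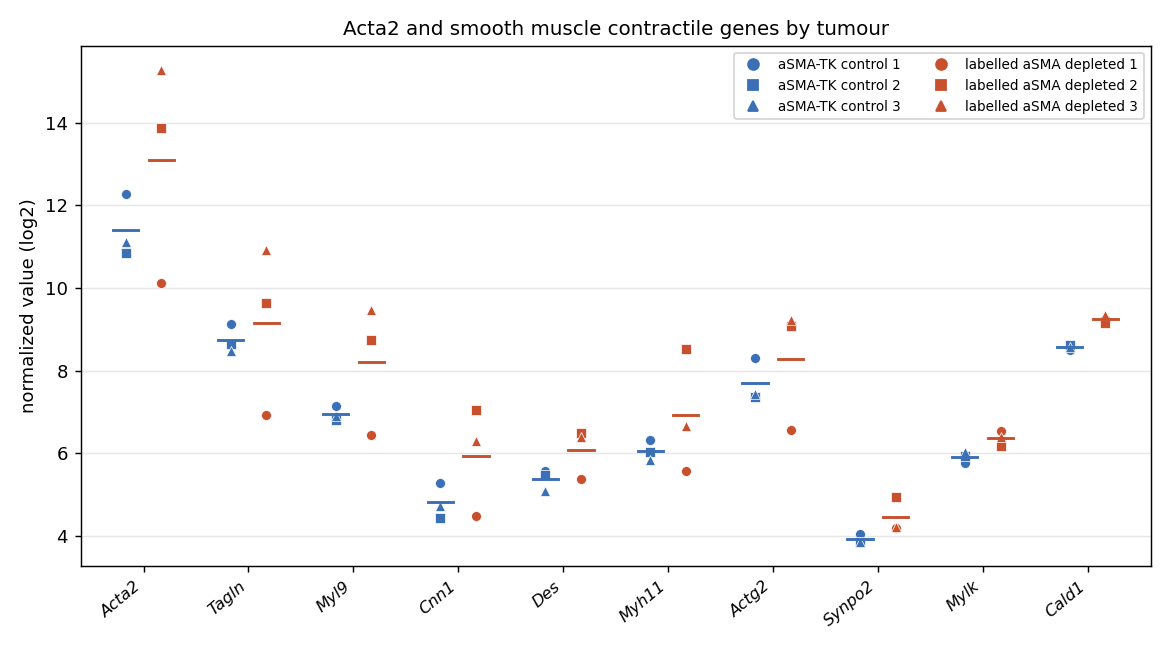
Normalized log2 values (vertical axis) of Acta2 and 9 other contractile genes in each tumour; blue marks the aSMA-TK controls, red the tumours labelled aSMA depleted, the marker shape gives the tumour number and the short bar the group mean. For Acta2 labelled-depleted tumour 1 lies at 10.13, under all controls, while tumours 2 and 3 lie at 13.86 and 15.28, above them.

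Across all 30142 genes the test called none at an adjusted p under 0.05 (0% of the genes), and the smallest adjusted p was 0.474, for Wnt4. At an unadjusted p under 0.05 there were 1450 genes (4.81%), of which 744 were higher (2.47%) and 706 lower (2.34%) in the labelled-depleted tumours. The values of the 2 groups did not overlap for 3773 genes (12.5%), with 2241 higher (7.43%) and 1532 lower (5.08%). With all 6 tumours in the fit no gene described below therefore passed the test. Genes are described by their values in each tumour, and only some also by a difference with its SE. Each group holds only 3 tumours of both sexes, which limits the precision of all differences.

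Fibroblast genes had higher means in the tumours labelled aSMA depleted. All 11 measured genes of the pan-fibroblast list had a higher mean there, with a median difference of 1.04 (0.58 to 1.21 with 1 tumour left out), beside 0.01 for all genes. Without labelled-depleted tumour 3 the count fell to 7 of 11, and without labelled-depleted tumour 2 or control 3 it was 9. The mean of the list was 10.19, 10.00 and 9.59 in the controls and 10.37, 10.87 and 11.43 in the labelled-depleted tumours, so the list means did not overlap. Decorin (Dcn), a small proteoglycan that coats collagen fibrils, was 9.61, 10.11 and 9.63 in the controls and 13.14, 13.06 and 11.29 in the labelled-depleted tumours, a difference of 2.71 ± 1.15 (adjusted p = 0.944), with no overlap. Lumican (Lum), a related collagen-binding proteoglycan, was 7.91, 7.74 and 7.36 against 9.04, 8.32 and 8.89, and Mmp2, a gelatin-cutting metalloproteinase, was 10.08, 9.67 and 10.12 against 11.00, 11.40 and 12.15. With Pdpn, the fibroblast and lymphatic surface protein podoplanin, these 4 of 11 had no overlap, beside 7.43% of all genes. Fap, the other depletion target of the series, was 6.25, 6.38 and 5.76 in the controls and 6.15, 6.01 and 7.25 in the labelled-depleted tumours, where only tumour 3 lay above the controls, and no array was above background for it.

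Small proteoglycans and matrix regulators, not the fibrillar collagens, made up the non-overlapping part of the matrix list. Of its 23 measured genes 20 had a higher mean in the labelled-depleted tumours, with a median difference of 0.39 (0.10 to 0.97 with 1 tumour left out), and 9 did not overlap, beside 7.43% of all genes. The count of 20 fell to 12 without labelled-depleted tumour 3, to 14 without control 3 and to 15 with sex as a covariate. Biglycan (Bgn) was 15.00, 14.72 and 14.70 in the controls and 16.23, 16.00 and 16.41 in the labelled-depleted tumours. Fibromodulin (Fmod), which steers collagen fibril assembly, was 5.20, 4.85 and 5.47 against 6.98, 5.73 and 6.55. Lysyl oxidase (Lox), the enzyme that crosslinks collagen and elastin, was 9.90, 9.28 and 9.59 against 10.07, 12.17 and 13.21, with tumour 1 just above the controls and tumours 2 and 3 well above. The differences were 1.41 ± 1.12 for Bgn, 1.25 ± 0.52 for Fmod and 2.23 ± 1.18 for Lox. For Bgn the standard deviation was only 0.17 in the controls and 0.20 in the labelled-depleted tumours. Its SE also takes in the FAP line, where Bgn ran from 11.60 to 17.63. The other non-overlapping genes were Dcn, Lum, fibulins 1 and 2 (Fbln1 and Fbln2), periostin (Postn) and thrombospondin 1 (Thbs1). Of the 23 genes 9 were above background on no array, Fmod and Fbln1 among them.

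The fibrillar collagens overlapped, with labelled-depleted tumours at both ends. Col1a1, a chain of type I collagen, was 14.00, 13.56 and 12.50 in the controls and 12.01, 13.67 and 15.53 in the labelled-depleted tumours, lowest of all 6 in tumour 1 and highest in tumour 3. Col3a1, of type III collagen, was 11.52, 11.71 and 10.02 against 9.43, 11.86 and 12.74. The differences of 0.38 ± 0.99 and 0.26 ± 0.93 were smaller than their errors. For Col1a1 every tumour with a female profile lay above every tumour with a male profile, and for Col3a1 the sexes overlapped. Tenascin C (Tnc), a matrix protein of wounds and tumour stroma, spread widely, at 10.67, 11.15 and 9.00 against 7.17, 9.59 and 13.61. Vimentin (Vim), the intermediate filament of mesenchymal cells, did not overlap, at 12.47, 11.90 and 11.56 against 13.04, 13.39 and 13.77.

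**Figure D2:**
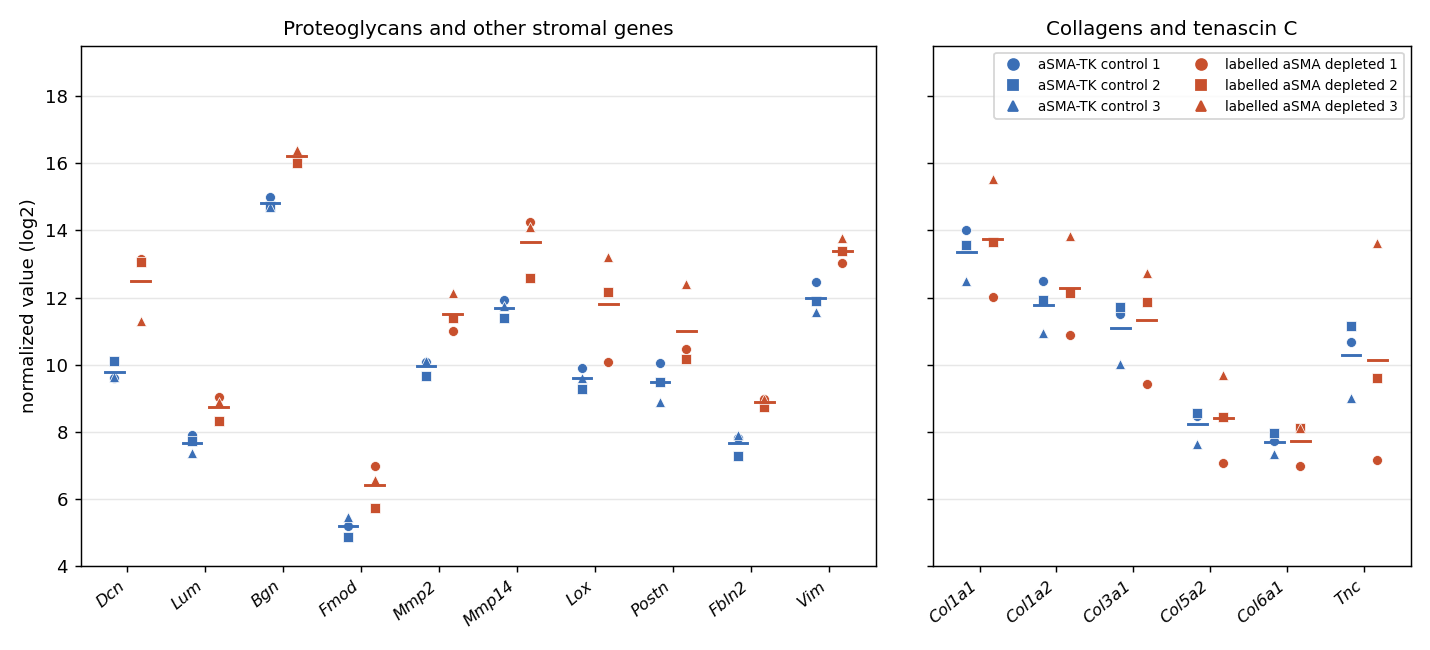
Normalized log2 values (vertical axis) of proteoglycan and other stromal genes (left) and of collagens and tenascin C (right) in each tumour; colours, shapes and bars are as in the plot of the contractile genes. Dcn lies at 11.29 or above in the labelled-depleted tumours and at 10.11 or below in the controls, while Col1a1 has both its lowest value, 12.01, and its highest, 15.53, among the labelled-depleted tumours.

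The myofibroblastic and the inflammatory fibroblast lists had like medians. In the myofibroblastic list 14 of 17 measured genes had a higher mean and 3 did not overlap (Col12a1, Postn and Cdh11), beside 7.43% of all genes. Its median difference was 0.58, and without labelled-depleted tumour 3 it changed sign, to -0.05, with 8 of 17 higher. Col12a1, a collagen of the fibril surface, was 10.73, 9.81 and 10.89 in the controls and 12.71, 11.11 and 13.80 in the labelled-depleted tumours. In the inflammatory list 16 of 19 had a higher mean, with a median of 0.58 (0.01 to 0.90 with 1 tumour left out), and 4 did not overlap, beside 7.43% of all genes. Without labelled-depleted tumour 2 the count was 10 of 19. Of these 19 genes 13 were above background on no array, Cxcl12 among them, against 5 of the 17 myofibroblastic genes. Cxcl12, a chemokine that draws lymphocytes and marrow cells, was 4.95, 5.03 and 5.08 against 6.15, 6.36 and 5.49 (0.98 ± 0.26). Il1r1, the receptor through which interleukin 1 acts on fibroblasts, was 8.90, 8.97 and 8.93 against 9.59, 11.62 and 10.03. Some cytokines of this list were high in a single tumour: Il6 was 3.82, 4.04 and 3.79 in the controls and 3.35, 9.40 and 4.13 in the labelled-depleted tumours, and Cxcl1 was 6.93, 6.50 and 6.63 against 6.82, 10.44 and 5.89, each highest in tumour 2.

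Most matrix-degrading enzymes and their inhibitors had higher means. Of 17 measured genes 13 had a higher mean, with a median difference of 0.64 (0.47 to 0.75 with 1 tumour left out), and 6 did not overlap, beside 7.43% of all genes. Mmp14, the membrane-bound metalloproteinase that activates Mmp2, was 11.94, 11.40 and 11.76 in the controls and 14.26, 12.57 and 14.11 in the labelled-depleted tumours. Mmp9, a gelatinase of leukocytes and tumour cells, was 5.57, 5.34 and 5.53 against 5.89, 8.22 and 7.18. The differences were 1.95 ± 0.84 and 1.61 ± 0.55 (adjusted p = 0.944 for both). The inhibitors Timp2 and Timp3 and the plasminogen activator gene Plat also did not overlap. Of the 17 genes 9 were above background on no array, Mmp9 and Timp3 among them. Basement membrane genes had 14 of 16 higher means and a median of 0.32 (0.21 to 0.35 with 1 tumour left out), and 4 did not overlap, among them the laminin chain gene Lamc1 and nidogen 1 (Nid1), beside 7.43% of all genes.

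Several receptor genes were among the signalling genes without overlap. In the TGF-beta list 12 of 16 genes had a higher mean (median 0.43, 0.26 to 0.58 with 1 tumour left out), with 6 non-overlapping higher and 1, the feedback inhibitor Smad7, lower, beside 7.43% and 5.08% of all genes. All 3 TGF-beta receptors were among the 6. Tgfbr3, the coreceptor betaglycan, was 5.67, 5.71 and 5.62 in the controls and 6.53, 7.35 and 6.57 in the labelled-depleted tumours, a difference of 1.15 ± 0.29. Tgfbr1, the signalling type I receptor, was 9.85, 10.04 and 10.07 against 10.81, 10.83 and 10.25. Tgfbr2, the receptor deleted in the epithelium of this model, was 9.55, 9.79 and 9.91 against 10.98, 10.17 and 10.26. Which cells the Tgfbr2 RNA came from was not tested. Of the 16 TGF-beta genes 10 were above background on no array, Tgfbr3 and Smad7 among them. In the interleukin 6 list the receptor genes Osmr, Il6ra and Il6st were the 3 of 16 without overlap, beside 7.43% of all genes. Il6ra was above background on no array. Osmr, the receptor of oncostatin M, was 9.30, 9.63 and 9.79 against 11.65, 11.04 and 9.86, and Il6st, the shared signalling chain gp130, was 11.08, 10.67 and 11.38 against 13.15, 11.83 and 11.52.

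The higher gene of smallest p in the comparison was a Wnt ligand. Wnt4, a secreted Wnt ligand, was 5.58, 5.61 and 6.05 in the controls and 8.12, 7.41 and 7.25 in the labelled-depleted tumours, a difference of 1.85 ± 0.23 with no overlap, and none of its values was above background. Its adjusted p was 0.474, and without labelled-depleted tumour 3 it passed the test (difference 2.02, adjusted p = 0.0466). Dkk3, a secreted protein of the Dickkopf family, was 6.59, 6.55 and 6.60 against 8.26, 7.25 and 8.29. Sfrp1, a secreted Wnt antagonist, was 9.28, 7.27 and 7.86 against 9.88, 9.99 and 10.85. In all 13 of 15 measured Wnt genes had a higher mean (median 0.28, 0.10 to 0.53 with 1 tumour left out), and 6 did not overlap, beside 7.43% of all genes. Of these 15 genes 14 were above background on no array. In the hedgehog list, whose ligands come from the epithelium and act on fibroblasts, Shh was 12.68, 12.08 and 13.43 against 10.82, 12.24 and 10.76 and the target Gli1 was 5.19, 5.41 and 5.18 against 5.23, 5.16 and 5.47. The median of the 10 hedgehog genes was 0.12 and changed sign in 2 of 16 alternative settings.

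A few vessel genes did not overlap. Abcc9 and Kcnj8 encode the subunits of the potassium channel that marks pericytes. Abcc9 was 6.40, 6.27 and 5.74 in the controls and 7.79, 7.16 and 7.42 in the labelled-depleted tumours, and Kcnj8 was 4.18, 4.51 and 3.92 against 5.11, 6.04 and 4.91, both without overlap and neither above background on any array. Rgs5, another pericyte marker, overlapped, at 9.46, 9.18 and 9.13 against 10.93, 9.25 and 9.66. The mean of the 11 pericyte genes was 6.28, 6.18 and 6.02 in the controls and 6.72, 6.61 and 6.85 in the labelled-depleted tumours, without overlap, and the median difference was 0.49 (0.28 to 0.73 with 1 tumour left out, lowest without labelled-depleted tumour 3, and 0.22 with sex as a covariate). Of these 11 genes 7 were above background on no array. For the 13 endothelial genes the median was 0.31 (0.04 to 0.40 with 1 tumour left out). Vwf, von Willebrand factor, the clotting protein stored in endothelial cells, was 4.98, 4.97 and 4.89 against 5.93, 5.54 and 6.01, with no array above background, while Kdr, the main receptor of vascular endothelial growth factor, was 8.04, 8.03 and 7.30 against 7.91, 7.24 and 8.22. Lyve1, the hyaluronan receptor of lymphatic endothelium and some macrophages, was 7.21, 6.77 and 6.87 against 10.25, 8.88 and 10.37 (2.89 ± 1.00). The lymphatic transcription factor Prox1 was high only in tumour 1, at 6.11, 5.89 and 6.32 against 8.04, 6.10 and 6.21, and its difference of 0.68 became 0.05 without that tumour.

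The naming rule took, among genes without overlap and above the median level, the 10 largest differences in each direction, leaving out clone and predicted names, small RNAs and immune receptor segments. The numbered copies of the 5S ribosomal RNA gene were left out as well, an exclusion added to the rule after the values were seen, and with them all 10 lower places would be such copies. Serpina3n, an acute-phase inhibitor of serine proteases, was 10.85, 8.77 and 10.11 in the controls and 15.70, 15.83 and 15.02 in the labelled-depleted tumours. The groups lay far apart, and the difference was 5.61 ± 1.38 (adjusted p = 0.944). Mt2, a metallothionein that binds zinc and copper, was 16.66, 14.69 and 13.94 against 18.44, 18.53 and 18.27, with close values in the labelled-depleted group (3.32 ± 0.92). Pgc, the gastric zymogen progastricsin, was 6.04, 4.59 and 4.95 against 11.05, 13.17 and 6.53, high in tumours 1 and 2 and just above the controls in tumour 3. Scnn1a, a subunit of the epithelial sodium channel, was 8.48, 8.07 and 8.03 against 13.12, 10.75 and 10.17. Slc43a3, a purine transporter, was 9.36, 8.56 and 8.10 against 11.53, 10.96 and 11.82, and the macrophage mannose receptor Mrc1 was 10.52, 8.87 and 10.50 against 13.92, 11.71 and 11.89. The same rule named Lyve1, Dcn, the kallikrein Klk1b22 and Selenbp1, a selenium-binding protein whose probes may also read its near-identical neighbour Selenbp2.

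The upstream windows of Serpina3n and Mt2 are shown because these genes had some of the largest differences without overlap. Both are from RefSeq (GRCm38.p6, plus strand, 250 bases before the start, 5′ to 3′), at chr12:104406458-104406707 and chr8:94172368-94172617. The Serpina3n start used lies inside the outer bounds of the gene, which begin at 104406646. Capitals mark, in Serpina3n, a match to the glucocorticoid response element, searched as GNACA and TGTNC with 3 bases between them, and, in Mt2, matches to the metal response element core TGCNCNC, both on either strand.
Serpina3n: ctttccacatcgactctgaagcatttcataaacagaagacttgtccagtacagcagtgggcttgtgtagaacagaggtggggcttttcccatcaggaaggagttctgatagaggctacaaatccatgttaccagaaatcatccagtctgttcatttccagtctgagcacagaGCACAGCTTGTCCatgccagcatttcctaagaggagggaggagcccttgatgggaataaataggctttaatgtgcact
Mt2: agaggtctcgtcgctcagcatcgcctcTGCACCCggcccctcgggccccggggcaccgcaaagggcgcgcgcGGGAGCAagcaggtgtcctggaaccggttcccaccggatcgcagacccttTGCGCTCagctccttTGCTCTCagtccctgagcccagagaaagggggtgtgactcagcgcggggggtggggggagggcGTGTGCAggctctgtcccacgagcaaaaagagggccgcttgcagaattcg
The Serpina3n window holds 1 match, as 0.387% of all 32851 windows do. In Mt2 there are 5 matches to the looser pattern, and 0.344% of all windows hold as many, while 44.4% hold at least 1. The shares for the stricter core were not counted. Neither match tells whether a factor was bound in these tumours.

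By smallest p, 9 further higher genes joined Wnt4, with differences from 0.34 for the dynein light chain gene Dynlt1b to 2.76 for Slc43a3. Hspb7, a small heat shock protein of muscle, was 3.82, 3.58 and 3.63 in the controls and 6.69, 5.20 and 5.88 in the labelled-depleted tumours. Sod3, the extracellular superoxide dismutase, was 4.22, 4.28 and 4.04 against 4.61, 4.90 and 5.01. Ramp3, which makes the calcitonin-like receptor respond to adrenomedullin, was 4.72, 4.58 and 4.66 against 5.46, 5.04 and 5.10. None of these 3 was above background on any array. The other 5, Rpl30-ps11, Hsp25-ps1, Ppp1r2-ps3, Serpina3e-ps and Dynlt1b, include 4 pseudogenes, whose probes may read their parent genes, so their identity is uncertain. Hspb1, the parent of Hsp25-ps1, was 6.44, 6.52 and 6.39 against 7.09, 7.07 and 7.04, and was above background on no array.

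The named genes with lower values in the labelled-depleted tumours included several of mucosal epithelium. Clca1, a protein secreted by goblet cells, was 17.22, 19.40 and 18.27 in the controls and 11.05, 15.20 and 15.78 in the labelled-depleted tumours, a difference of -4.29 ± 2.36 with tumour 1 lowest (-2.81 without it). Vnn1, an epithelial pantetheinase, was 9.24, 11.20 and 12.75 against 8.32, 8.52 and 7.53. Lgals2, a galectin of gut epithelium, was 8.57, 9.50 and 12.49 against 5.06, 7.18 and 7.86. Rgs13, a regulator of G proteins found in tuft and mast cells, was 9.09, 9.39 and 11.03 against 6.61, 7.78 and 7.57. The rule also named Tmem236, Cyp2c65, Cyp2c66, Lypd8 and Adgrg7, with differences between -2.58 and -3.26. Lypd8, an epithelial surface protein of the gut, was 16.53, 17.16 and 17.29 against 10.47, 16.35 and 15.85, and its difference of -2.77 became -0.90 without tumour 1. The difference of Adgrg7, an adhesion receptor, went from -2.61 to -1.45 without control 3. Rn5s, the 5S ribosomal RNA, had the largest difference of the named lower genes, at 16.06, 19.09 and 15.38 against 11.42, 13.56 and 12.65. By smallest p the lower genes were Vmn2r-ps7, Tas2r121, Smcp, Aadac, Aqp5, Asz1, Kctd21, Prps1l1, Tmem247 and Ifit1bl1, none of them above background on any of the 6 arrays. Of these Aqp5, a water channel of secretory epithelium, was 5.30, 5.09 and 5.38 against 4.47, 4.55 and 4.68.

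**Figure D3:**
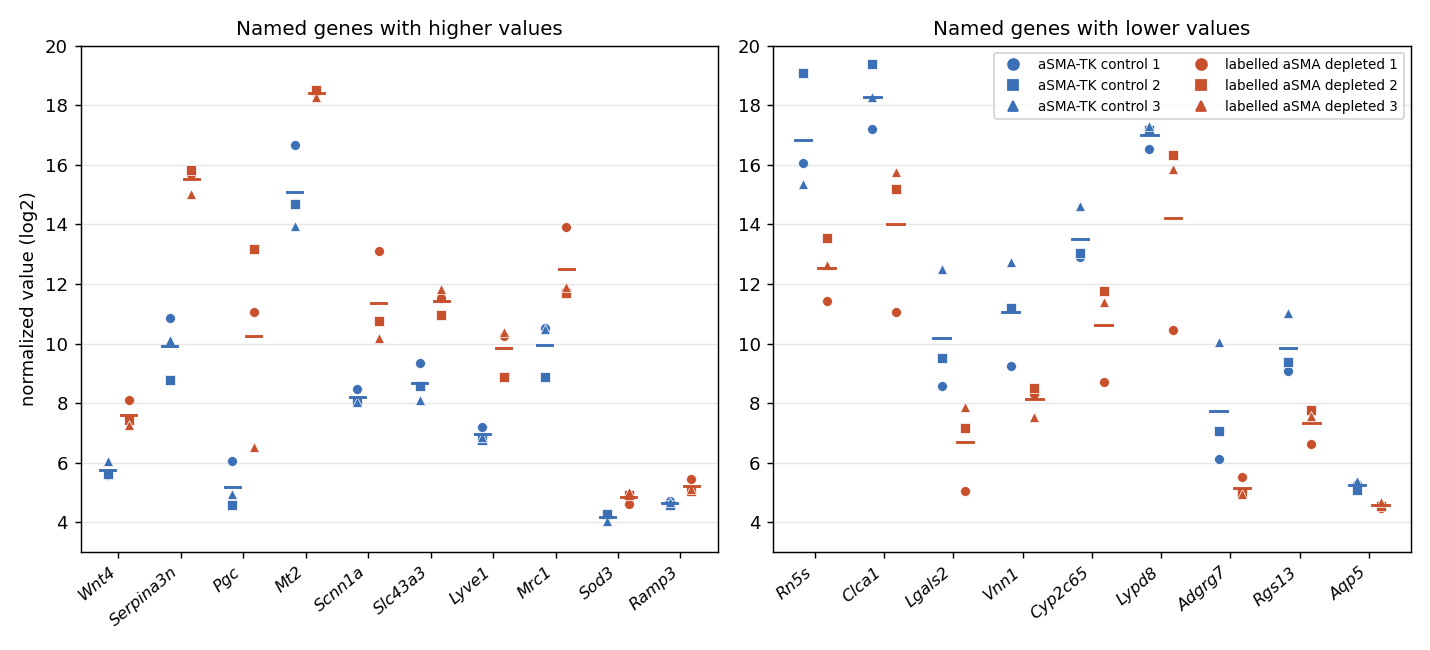
Normalized log2 values (vertical axis) in each tumour of genes with higher (left) and lower (right) values in the labelled-depleted group, chosen by size of difference or by smallest p; colours, shapes and bars are as in the plot of the contractile genes. Serpina3n lies at 15.02 or above in every labelled-depleted tumour and at 10.85 or below in every control, and none of the plotted genes passed the test.

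Most gastric and acinar genes were lowest in labelled-depleted tumour 1, namely 12 of 16 and 25 of 28. The share of all genes lowest in that tumour, which correlated least with the other arrays, was not counted. Pgc, described above, is a gastric gene and was instead higher in tumour 1 than in every control. Muc5ac, a gastric surface mucin made by early pancreatic lesions, was 16.65, 16.48 and 14.78 in the controls and 7.84, 14.28 and 17.02 in the labelled-depleted tumours, and its difference of -2.92 became -0.32 without tumour 1. The mean of the 16 gastric and mucosal genes was 13.83, 13.35 and 13.58 in the controls and 11.25, 13.84 and 13.93 in the labelled-depleted tumours. Its median difference of -0.99 became -0.0074 without tumour 1. Ctrb1, a chymotrypsinogen of acinar cells, was 19.87, 19.86 and 19.87 against 12.62, 19.87 and 19.87, at the top of the scale on 5 arrays. The mean of the 28 acinar genes was 8.62, 8.30 and 9.85 in the controls and 5.64, 9.81 and 11.42 in the labelled-depleted tumours, and their median difference of 0.21 changed sign in 5 of 16 settings, so no direction is given for them. The ductal list had a median of -0.11 over 16 genes, which was 0.15 without control 3, and 2 of them did not overlap, Cldn4 (higher) and Krt7 (lower), the same share as the 12.5% of all genes. Krt7, a keratin of ducts, was 12.30, 12.57 and 12.55 against 11.75, 12.25 and 12.10. In the list of epithelial-mesenchymal transition all 10 genes had a higher mean (median 0.47, 0.31 to 0.69 with 1 tumour left out). N-cadherin (Cdh2) was 5.75, 5.52 and 5.38 against 7.08, 6.92 and 6.56, and Zeb1, a repressor of epithelial genes, was 6.27, 6.22 and 6.18 against 6.73, 6.58 and 6.62. Of the 10 genes 7 were above background on no array, Cdh2 and Zeb1 among them. The genes of this list are also made by fibroblasts.

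Most macrophage genes had a higher mean, and most interferon-induced genes a lower mean, in the labelled-depleted tumours. In the macrophage and monocyte list 16 of 19 had a higher mean (median 0.56, 0.29 to 0.63 with 1 tumour left out), with 4 non-overlapping higher (Mrc1, C1qb, Itgam and Cd68) and 1 lower, beside 7.43% and 5.08% of all genes. C1qb, a chain of complement C1q made by tissue macrophages, was 10.32, 10.15 and 11.80 in the controls and 12.88, 12.31 and 13.00 in the labelled-depleted tumours. Cd68, a lysosomal marker, was 10.78, 9.47 and 11.33 against 12.09, 11.97 and 12.04. The 1 lower gene was Ccr2, the receptor that brings monocytes from blood, at 6.61, 6.99 and 6.80 against 6.56, 5.56 and 5.13. Ccr2 was above background on no array.

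In the interferon list 18 of 19 measured genes had a lower mean in the labelled-depleted tumours, with a median difference of -0.50 (-0.84 to -0.31 with 1 tumour left out). The mean of the list was 5.35, 6.30 and 5.98 in the controls and 5.18, 5.49 and 5.13 in the labelled-depleted tumours. These list means overlapped, with control 1 below labelled-depleted tumour 2. Type I and type II interferons raise these genes in most cells as an antiviral response. Ifit1, which binds viral RNA, was 5.95, 7.34 and 6.29 in the controls and 5.21, 5.58 and 5.27 in the labelled-depleted tumours (-1.17 ± 0.31, adjusted p = 0.944). Oas1a, which makes the activator of an antiviral ribonuclease, was 7.01, 7.96 and 7.58 against 5.86, 6.80 and 6.37 (-1.17 ± 0.43). With Oasl1 and Irf9 these were the 4 of 19 without overlap, beside 5.08% of all genes. Gbp2, a guanylate-binding protein raised most by interferon gamma, was 7.24, 9.88 and 10.25 against 7.32, 8.08 and 6.82, so that control 1 lay among the labelled-depleted values. None of the 19 was above background on at least 4 of the 6 arrays, which means that these are differences between dim signals.

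The windows before Ifit1 and Oas1a are shown as the regulatory sequence of the interferon genes without overlap. They are from RefSeq (GRCm38.p6, 250 bases before the start, 5′ to 3′), at chr19:34640639-34640888 on the plus strand and chr5:120907526-120907775 on the minus strand. The Oas1a start used lies inside the outer bounds of the gene, which end at 120907544. Most of the stretch marked in Oas1a therefore lies within those bounds. Capitals mark matches to the interferon-stimulated response element core, searched as GAAA and GAAA with 2 bases between them on either strand, overlapping matches joined.
Ifit1: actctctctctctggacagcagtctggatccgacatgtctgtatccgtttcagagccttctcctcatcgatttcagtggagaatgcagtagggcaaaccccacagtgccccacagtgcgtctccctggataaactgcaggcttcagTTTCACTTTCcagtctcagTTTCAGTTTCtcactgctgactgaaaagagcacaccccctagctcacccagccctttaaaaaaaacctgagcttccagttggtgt
Oas1a: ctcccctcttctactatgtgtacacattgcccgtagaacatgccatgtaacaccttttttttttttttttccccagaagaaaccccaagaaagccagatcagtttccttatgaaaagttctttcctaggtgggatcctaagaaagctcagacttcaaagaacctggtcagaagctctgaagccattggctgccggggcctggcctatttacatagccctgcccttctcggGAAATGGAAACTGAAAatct
Each window holds 2 matches, as 0.18% of all windows do. At least 1 match was present in 9 of the 15 interferon genes with a window and in 2.98% of all windows.

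Immunoglobulin genes had high values in labelled-depleted tumours 1 and 2 and not in tumour 3. The mean of the 209 immunoglobulin segments was 4.57, 4.38 and 4.30 in the controls and 6.41, 5.42 and 4.36 in the labelled-depleted tumours. Of the segments 198 had a higher mean, 28 did not overlap, beside 7.43% of all genes, and 3 were above background on at least 4 of the 6 arrays. Many segments share sequence, so their values are not independent. Ighm, the heavy chain of IgM, was 5.35, 7.05 and 5.55 in the controls and 10.45, 10.03 and 5.59 in the labelled-depleted tumours. Cxcl13, the chemokine that gathers B cells into follicles, was 7.81, 11.12 and 6.85 against 14.13, 15.44 and 8.16. Without labelled-depleted tumour 3 the test called 16 genes, all higher, of which 12 were immunoglobulin segments. Cd3e, a chain of the T cell receptor complex, was 3.91, 3.90 and 3.96 against 5.75, 4.94 and 4.06, and the inhibitory receptor Ctla4 was 3.38, 3.46 and 3.46 against 4.13, 3.95 and 3.52. The 12 T cell genes had a median of 0.13, which changed sign without labelled-depleted tumour 1, and none of them was above background on at least 4 of the 6 arrays.

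H2-Ea, a chain of the class II molecule I-E, separated control 1 from the other controls. It was 3.96, 7.96 and 8.59 in the controls and 3.58, 3.98 and 3.90 in the labelled-depleted tumours. Without control 1 the difference passed the test, at -4.45 log2 units (adjusted p = 0.000123), and with it the adjusted p was 0.944. None of these values was above background, so the called difference is one between dim signals. H2-Ea is deleted in some laboratory mouse strains and intact in others. The FAP-TK line had values between 3.45 and 3.80 on all 6 arrays.

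**Figure D4:**
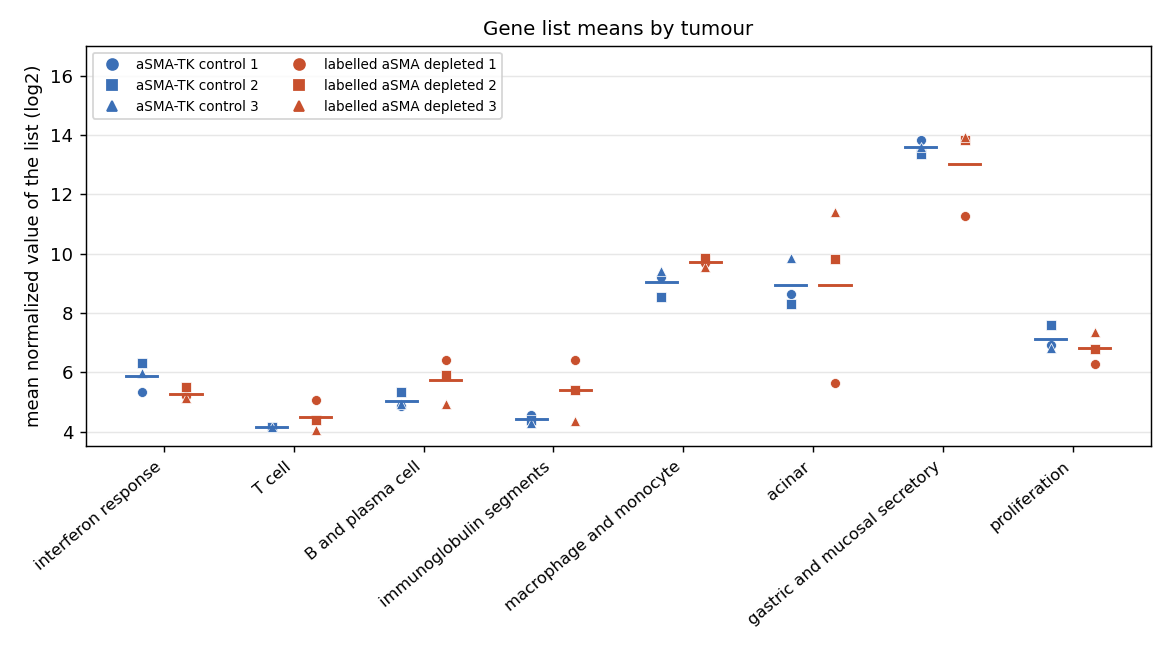
Mean normalized log2 value (vertical axis) of the genes of 8 lists in each tumour; colours, shapes and bars are as in the plot of the contractile genes. The immunoglobulin segments are at 6.41 and 5.42 in labelled-depleted tumours 1 and 2 but at 4.36 in tumour 3, and the acinar and gastric lists are lowest in labelled-depleted tumour 1.

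Proliferation and oxidative phosphorylation genes mostly had lower means, and p53 target and hypoxia genes mostly higher ones, in the labelled-depleted tumours. In the proliferation list 17 of 18 genes had a lower mean (median -0.29, -0.56 to -0.03 with 1 tumour left out) and 2, the replication helicase genes Mcm2 and Mcm6, did not overlap, beside 5.08% of all genes. Without labelled-depleted tumour 1 the count was 9 of 18, and 2 of the 18 genes were above background on at least 4 of the 6 arrays. Mki67, the marker of cycling cells, was 9.85, 11.20 and 9.72 in the controls and 9.08, 10.01 and 10.75 in the labelled-depleted tumours, highest in control 2. In the p53 list 16 of 19 had a higher mean (median 0.54, 0.30 to 0.67 with 1 tumour left out, and 0.22 with probe sets averaged). Of these 19 genes 14 were above background on no array. The mean of the p53 list was 8.10, 7.92 and 8.19 in the controls and 9.09, 8.57 and 8.14 in the labelled-depleted tumours. These list means overlapped, with labelled-depleted tumour 3 among the controls. Cdkn1a, the cell cycle inhibitor p21, was 13.52, 12.86 and 13.87 against 15.19, 14.41 and 14.23 and did not overlap. In the hypoxia and glycolysis list 11 of 15 had a higher mean (median 0.51, 0.30 to 0.82 with 1 tumour left out), and the glycolytic enzyme gene Pgk1 was 13.74, 13.51 and 14.20 against 14.42, 14.74 and 14.81. Of the 20 oxidative phosphorylation genes 18 had a lower mean (median -0.22, -0.32 to -0.07 with 1 tumour left out) and 6 did not overlap, beside 5.08% of all genes. The count was 12 of 20 without labelled-depleted tumour 1 and after median centring. Cyc1, of the cytochrome bc1 complex, was 8.12, 8.17 and 8.19 against 7.15, 7.77 and 8.11, and was above background on no array.

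**Figure D5:**
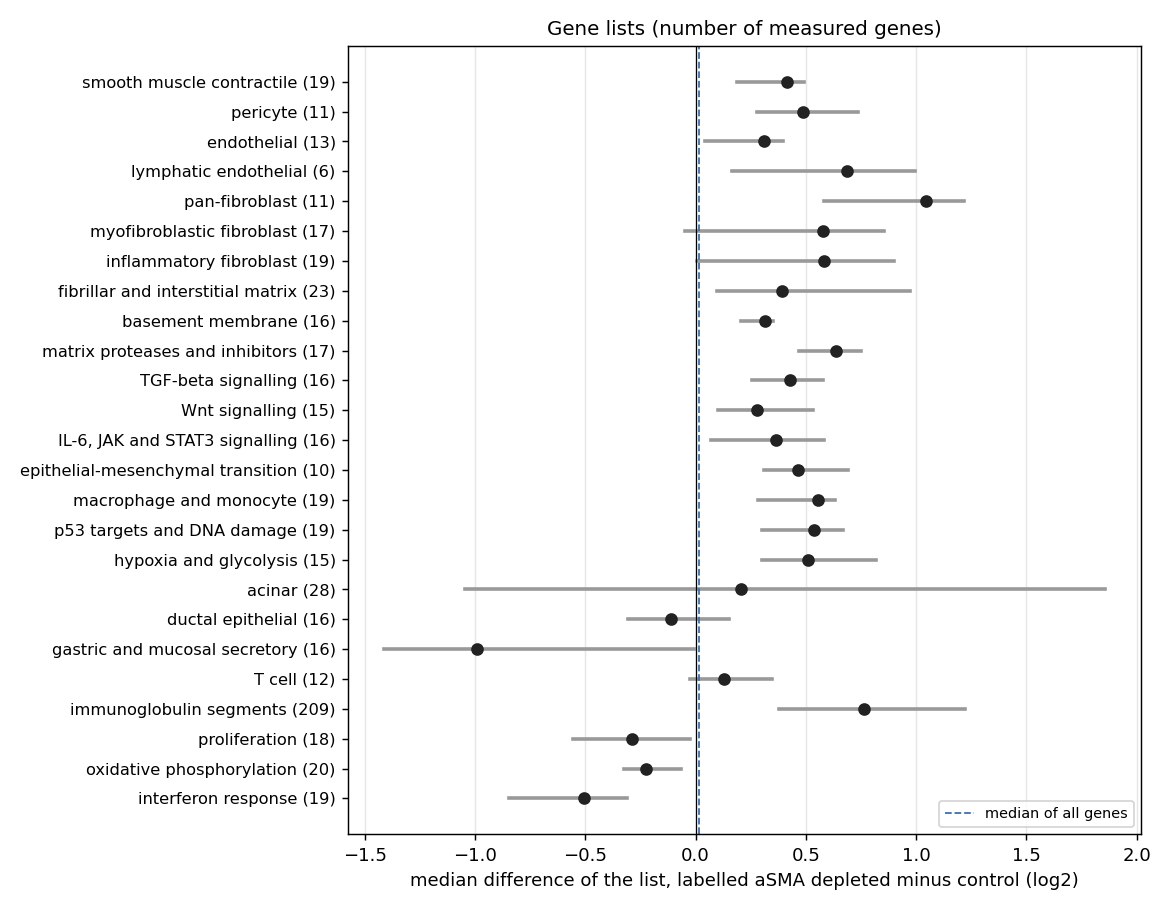
Median difference of each gene list (horizontal axis, labelled aSMA depleted minus aSMA-TK control, log2 units); the point is the value over all 6 tumours, the grey line its range when 1 tumour is left out at a time, the dashed line the median of all genes and the number in brackets the measured genes. The pan-fibroblast list lies at 1.04 and the interferon list at -0.50, while the acinar range runs from -1.04 to 1.86.

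The aSMA effect was last set beside that of FAP depletion, which was measured in other tumours with other controls. No gene passed the test of the difference between the effects (0% of 30142), and 1796 did at an unadjusted p under 0.05 (5.96%). Acta2 differed by -1.69 ± 1.71 in the FAP line, against 1.68 ± 1.71 here, and the adjusted p of the difference between these effects was 0.854. For Dcn the FAP effect was -1.36 ± 1.15, for Bgn -1.36 ± 1.12, for Vim -1.33 ± 0.85 and for Slc43a3 -2.00 ± 0.64, each opposite in sign to the aSMA effect and set here after their values were seen, with adjusted p of the difference from 0.829 to 0.842. The pan-fibroblast list had a median of -0.57 in the FAP line and 1.04 here. Other differences had the same sign in both lines. In the FAP line the median was 0.50 for the p53 list, 0.38 for hypoxia and 0.55 for basement membrane. The medians here were 0.54, 0.51 and 0.32. Scnn1a, Cldn4, Plat and Lypd8 differed by 1.79 ± 1.16, 1.94 ± 0.87, 2.68 ± 0.77 and -2.59 ± 2.37 in the FAP line, each with the sign seen here. These too were set here after their values were seen. Serpina3n and Mt2 differed by -0.30 ± 1.38 and -0.04 ± 0.92 in the FAP line. The arrays of the FAP line had a higher background, and the lines differ in more than the depleted cells, so line and effect cannot be told apart in these side-by-side values. Within the FAP line, FAP-TK control 1 and 3 and FAP depleted 2 had 1868, 2179 and 1980 genes above background. FAP-TK control 2 and FAP depleted 1 and 3 had 3664, 3894 and 4243. These arrays are split unevenly between the FAP groups, so array quality and the FAP effect cannot be told apart either.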

How the data were processed

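RNA of pancreas tumours was measured on 1-colour arrays, 1 per tumour. The deposited table holds the authors' processed log2 values for 72688 probe sets, with the log2 scale read from the values. How they corrected, summarized and normalized the signal is not given in these sources. The only tool in the submitters' processing notes is limma, with no version. Per the labels' protocols the label was made with a kit for Illumina arrays, whereas the probe set names are of an Affymetrix design. Values span more than a 16-bit scanner records, so differences are not converted to folds.

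After 6732 control probe sets were left out, 65956 were quantile normalized between arrays. Genes came from the platform annotation where it gave 1 symbol (30604 of 32750 listed probe sets, 2146 with several and 33206 unlisted), with 827 symbols updated through RefSeq. For 355 genes the brightest of several probe sets was kept, which left 30142. A 4-group mean model over 12 arrays was fitted with limma 3.58.1 (R 4.3.3, statmod 1.5.0), with two-sided moderated tests adjusted by Benjamini-Hochberg over all genes and called under 0.05, and checked on simulated data.

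Genes were named by a rule: Acta2 and Fap, per direction the 10 genes without overlap of smallest p and the 10 of largest difference above the median level (clone names, small RNAs, immune receptor segments and numbered 5S copies left out), and per list up to 4 members of smallest p. Other genes describe a list or were chosen after their values were seen. Of 754 entries in 50 lists, 684 were measured. Members and lists were chosen with earlier results of these data known. Promoter windows are RefSeq's (GRCm38.p6). The alternatives were other scalings, filters, models and covariates and leaving out each tumour. The number of arrays limits the precision.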

Additional observations from a re-analysis of the deposited data

How the results depend on the processing

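The count of called genes was 0 under each of the 10 alternatives that keep all 6 tumours and at an adjusted p under 0.1. Leaving out 1 tumour at a time gave 0 to 16 genes, with 16 without labelled-depleted tumour 3, 1 (H2-Ea) without control 1 and 0 otherwise. The count for the difference between the depletion effects was 0 to 1 in the same way. The cause was not tested. The Acta2 difference kept its sign in all 16 alternative settings. No paired analysis was possible because the mouse numbers in the labels are unique to each array.

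With sex as a covariate the sign turned for Col3a1 (-0.23), Col5a2 (-0.16), Col6a1 (-0.088), Kdr (-0.062) and Tagln (-0.10). Array weights turned Kdr (-0.10) and Tnc (0.38), and control separation as a covariate turned Kdr (-0.040). Leaving out 1 tumour at a time turned the sign of genes whose groups overlapped. The ranges were -0.51 to 1.25 for Col1a1, -0.26 to 1.21 for Col1a2, -0.44 to 1.22 for Col3a1, -0.46 to 0.84 for Col5a2 and -0.15 to 0.43 for Col6a1. They were -0.46 to 1.53 for Tagln, -1.90 to 1.33 for Tnc, -3.62 to 0.0054 for Ctrb1, -0.33 to 1.94 for Cxcl1 and -0.14 to 2.88 for Il6. They were -0.052 to 0.57 for Fap, -0.067 to 0.10 for Gli1, -0.24 to 0.27 for Kdr and -0.71 to 0.16 for Mki67. Genes below background, among them Wnt4 and the interferon list, rest on dim signals.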

Other observations

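Genes that glucocorticoid hormones are known to induce had higher means in the tumours labelled aSMA depleted. The 18 genes were listed after their values were seen, so their direction is a description and supports nothing. Of these, 17 were measured and all 17 had a higher mean, with a median difference of 1.45 log2 units, beside 0.01 for all genes, and 12 did not overlap between the groups, beside 7.43% of all genes. In the FAP line the median of the same genes was 0.16. Sgk1, a kinase that regulates sodium channels, was 7.73, 7.39 and 6.98 in the controls and 9.82, 9.26 and 9.52 in the labelled-depleted tumours. Anxa1, a phospholipid-binding protein that limits inflammation, was 12.47, 12.10 and 12.36 against 14.47, 13.31 and 13.30. Per1, a clock gene, was 8.82, 7.67 and 7.09 against 11.00, 9.33 and 9.19, and Klf9, a transcription factor, was 9.32, 8.40 and 8.67 against 11.08, 10.31 and 9.81. Tsc22d3 was 8.50, 7.83 and 7.41 against 8.82, 8.51 and 8.22. None passed the test. Mt2, described above, is a member of this list.

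The copies of 5S ribosomal RNA were lower in every labelled-depleted tumour than in every control, which was also seen only after the values were known. The array names 70 such genes, which share probes and hold only 38 distinct sets of values, so they are not independent. Their mean was 12.03, 15.06 and 11.66 in the controls and 8.70, 10.22 and 9.73 in the labelled-depleted tumours, with a median difference of -3.61 log2 units. In the FAP line their median difference was 2.04, in the opposite direction, and no 5S gene passed the test of either comparison or of the difference between the effects.

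Tuft cell genes, listed after their values were seen, had a median difference of -0.51 over 11 genes, 8 of them lower. Trpm5, a cation channel of taste and tuft cells, was 5.28, 5.65 and 6.56 in the controls and 4.73, 5.21 and 5.22 in the labelled-depleted tumours. Most of these genes were below background, with 1 of 11 above it on at least 4 of the 6 arrays. The list of goblet and surface epithelial genes, also made then, had a median of -1.70 over 10 measured genes. Of these 6 were lower and 4 higher, with differences from -4.29 to 2.89.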
